A study of Drosophila melanogaster with 8 samples.

Results

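Late embryonic development was followed in Drosophila embryos that expressed the transcription factor DIMMED (gene dimm) from a transgene in neurons, by setting stage 16 embryos against stage 14 embryos of the same genotype. The comparison used the 4 arrays of the elav-dimm genotype, of the 8 arrays in the series. These were 2 arrays of stage 16 embryos, aged 28 to 32 h after egg laying, and 2 arrays of stage 14 embryos, aged 22 to 26 h per the sample labels and at least 24 h per the series text. Their genotype was w;UAS-dimm2A3/+;elav-GAL4/+. They held 1 copy of a myc-tagged UAS-dimm insertion (line 2A3) and 1 copy of elav-GAL4, a driver active in neurons. Control embryos, with 2 arrays at each of the same stages, came from the maternal driver strain w;;elav-GAL4 and entered here for the estimate of the spread and for 1 comparison. Both genotypes carried the w mutation and the GAL4 driver, but they can also differ in GAL4 dose and in the paternal chromosomes. Adults were reared at 25 °C, and crosses and egg collections were kept at 18 °C to limit lethality. RNA came from whole dechorionated embryos, so a lower signal can mean fewer cells of a type or less RNA per cell, and the arrays cannot tell these apart. The labels give array replicates without saying whether they were separate RNA samples, so each p-value reflects the spread between arrays alone, and that spread may be technical.

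Between these stages the fly embryo completes dorsal closure, its ventral nerve cord condenses, muscles attach and begin to contract, and the epidermis and tracheae begin to lay down the larval cuticle of chitin and cuticle proteins. Most neuroblasts stop dividing, while neurons that have already extended axons acquire synapses, channels and transmitters. DIMMED belongs to the basic helix-loop-helix factors and normally acts in neuroendocrine cells, in which it raises genes that make, amidate and package neuropeptides.

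Signals are log2 GCRMA values of Affymetrix Drosophila Genome 2.0 probe sets, which the authors corrected for background, normalised and summarised. Of 18769 probe sets that are not array controls, 8165 lay above 4 on at least 2 of the 4 elav-dimm arrays and were tested, and 10604 were not. Tissue genes of the embryo were present at both stages. The neuronal gene elav had 11.56 and 11.67 at stage 16, against 12.23 and 12.21 at stage 14, and the glial homeobox gene repo had 9.53 and 9.26 at stage 16, against 9.96 and 10.13 at stage 14. Both replicate 1 arrays of stage 16 had low signal at the 5' end of the actin control transcript. In elav-dimm embryos the 5' signal lay below the 3' signal by 8.0 log2 units in replicate 1 and by 4.48 in replicate 2 at stage 16, against 3.09 and 3.82 at stage 14. The stage 16 arrays of elav-dimm embryos also differed more from each other (SD of the difference over probe sets 0.681) than the stage 14 arrays did (0.336). In control embryos the same SDs were 0.780 at stage 16 and 0.165 at stage 14. The part of this array difference in the stage changes was not tested. Counts without both low 5' arrays are given beside the main ones, but they rest on 1 stage 16 array per genotype. Their spread comes from the stage 14 arrays alone, which differed less, so these counts are not a check on the main ones.

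Most of the tested transcripts differed between the stages, and more were lower at stage 16 than were higher. In limma, 5208 of 8165 probe sets (63.8%) passed an adjusted p of 0.05, of which 1684 (20.6%) were higher and 3524 (43.2%) were lower at stage 16. Among them 1244 rose by 2-fold or more and 2093 fell by as much, while 16-fold or greater rises numbered 297 and falls of that size 72. The balance between rises and falls depended on the scaling of the arrays. The median change over all tested probe sets was -0.45 as deposited and -0.13 with the median of each array set equal. On such centred arrays 4682 (57.3%) passed, 2232 (27.3%) as higher and 2450 (30.0%) as lower. All 1684 rises and 2450 of the 3524 falls passed in the same direction on both scales, while the other 1074 falls did not pass once centred. List counts from the centred arrays are therefore given too, rises first and falls second. Without both low 5' arrays of stage 16, 6506 (79.7%) passed, 2103 (25.8%) as higher and 4403 (53.9%) as lower. That fit holds no spread between stage 16 arrays, so its larger count does not mean a firmer result. The stage 16 and stage 14 arrays did not overlap for 6982 probe sets (85.5%), with stage 16 above stage 14 for 2239 (27.4%) and below it for 4743 (58.1%).

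The largest rises came from transcripts at or near background at stage 14 and bright at stage 16. CG3108 had 11.95 and 12.37 at stage 16, against 4.01 and 3.17 at stage 14, a rise of 8.58 ± 0.37 on the log2 scale (SE, 2 arrays against 2, adjusted p = 1.97e-05). CG9083 had 12.72 and 12.88 at stage 16, against 5.57 and 3.70 at stage 14, with a rise of 8.16 ± 1.02, and its stage 14 arrays differed by more than 1 log2 unit. Where stage 14 signals lay below 4 the size of a rise is uncertain, and with values below 4 raised to 4 the rise of CG3108 was 8.16 and that of CG9083 8.01. Cyp304a1, a cytochrome P450 gene, had 9.54 and 9.56 at stage 16, against 2.18 and 2.19 at stage 14, the tetraspanin gene Tsp29Fa had 9.46 and 9.40 at stage 16, against 2.49 and 2.49 at stage 14, and Obp44a, of the odorant-binding protein family, had 11.06 and 10.40 at stage 16, against 4.04 and 3.59 at stage 14. Raised to 4 in the same way, their rises were 5.55, 5.43 and 6.71. CG5756, CG32645, CG17127, CG8888, CG7330, CG2961, CG5639, CG32855 and CG15370 completed the 14 largest rises, by 6.98 to 7.71 log2 units as deposited, and by 5.17 for CG15370 and 5.89 for CG5756 with values below 4 raised to 4.

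The largest falls included a hormone enzyme, a repressor and targets of Notch signalling. CG13064 had 2.89 and 2.49 at stage 16, against 10.35 and 10.46 at stage 14. The gene jhamt, for the methyltransferase that completes juvenile hormone synthesis, had 2.19 and 2.19 at stage 16, against 9.68 and 9.64 at stage 14, both stage 16 arrays being at the lowest value of the stage 16 arrays. Blimp-1, an ecdysone-induced transcriptional repressor of epidermis and tracheae, had 2.21 and 2.21 at stage 16, against 8.75 and 8.69 at stage 14. With values below 4 raised to 4 these falls were 6.4, 5.66 and 4.72 log2 units. Ocho, a Bearded family gene of Notch signalling, fell by 5.78 ± 0.099 (adjusted p = 2.32e-06), and the E(spl)mdelta-HLH gene, a Notch-induced repressor, fell by 5.34 ± 0.12. The mucin gene Muc30E fell by 6.05 ± 0.10 and 2 yellow family genes, yellow-e3 and yellow-e2, fell by 5.47 ± 0.24 and 5.19 ± 0.18. MFS1, a transporter gene of the major facilitator family, nesd, a gene of cytokinesis, CG34224, CG33258, CG5235 and CG13023 completed the 14, with falls of 5.12 to 7.06 as deposited and of 3.40 (nesd) and 5.25 (CG34224) with values below 4 raised to 4.

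**Figure D1:**
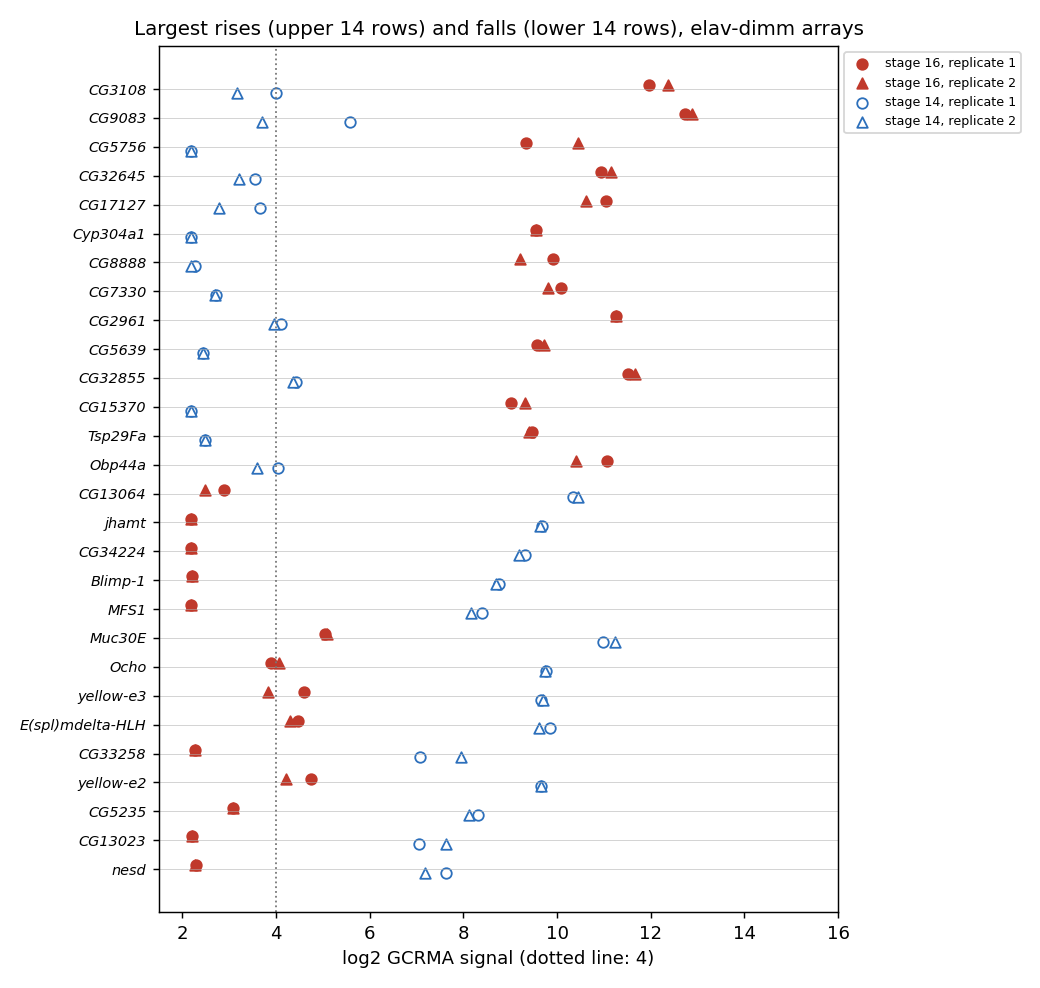
The horizontal axis gives the log2 GCRMA signal and each row 1 gene, with filled red symbols for stage 16 and open blue symbols for stage 14 elav-dimm arrays (circles replicate 1, triangles replicate 2; the dotted line marks 4). The upper 14 rows, from CG3108 to Obp44a, lie above 9 at stage 16, and the lower 14, from CG13064 to nesd, lie at or below 5.08 at stage 16.

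Most of the larval cuticle genes bright enough to test rose. Proteins of the Cpr family carry a chitin-binding domain and form the bulk of the procuticle, together with the Tweedle family. Of 81 Cpr family genes on the array 21 passed the filter and were tested, and 16 rose and 1 fell, against a background of 21.3% higher and 43.8% lower (65.1% in all) over 6794 genes with 1 probe set each. On centred arrays that background was 27.6% higher and 30.3% lower (58.0% in all). Cpr65Eb had 9.94 and 9.92 at stage 16, against 3.81 and 2.75 at stage 14, a rise of 6.65 ± 0.33 (adjusted p = 3.2e-05), and Ccp84Ac, Cpr66D and Cpr65Ea rose by 6.53 ± 0.13, 6.51 ± 0.30 and 5.62 ± 1.65. The fall was that of Cpr78Cb, which was lower by 2.17 ± 0.54. In the Tweedle family 12 of 16 tested genes rose and none fell. TwdlT had 10.18 and 10.47 at stage 16, against 3.55 and 3.55 at stage 14, a rise of 6.78 ± 0.15, and TwdlG, Twdlbeta and TwdlV rose by 5.74, 5.26 and 5.02. The Osiris genes, a family of insect transmembrane proteins made by cuticle-secreting epithelia, rose in 12 of 13 tested genes. Osi2 rose by 6.85 ± 0.31, Osi18 by 6.53 ± 0.38, Osi9 by 6.49 ± 0.63 and Osi19 by 6.22 ± 0.40. The counts of these 3 families were the same on centred arrays, and without both low 5' arrays 13 and 2 Cpr, 9 and 0 Tweedle and 13 and 0 Osiris genes rose and fell. Raising values below 4 to 4 left rises of 5.93 for Cpr65Eb, 5.04 for Ccp84Ac, 6.33 for TwdlT, 3.73 for TwdlV and 5.49 for Osi2, while that of Twdlbeta was 3.52 and did not pass (adjusted p = 0.124). Cpr65Ea did not pass when either control array of stage 14, stage 16 replicate 1 or stage 14 replicate 2 was left out (adjusted p = 0.0584 to 0.137), nor Twdlbeta without any 1 array of stage 14 or stage 16 elav-dimm replicate 1 (adjusted p = 0.0711 to 0.13). Without both low 5' arrays the rise of Twdlbeta was 3.10. A gene that was tested only because it was bright at stage 16 had to be higher there, so the counts describe the bright members alone.

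The 2 cuticle protein families also differed between arrays of 1 stage. The median signal of the 16 tested Tweedle genes was 10.28 and 8.89 at stage 16, against 6.04 and 3.41 at stage 14, and that of the Cpr family was 9.22 and 7.64 at stage 16, against 4.70 and 3.0 at stage 14. Replicate 1 was thus higher than replicate 2 at both stages, and at stage 16 the control arrays split in the same way (Tweedle medians of 10.23 and 8.54). The Osiris median, at 12.35 and 12.67 at stage 16, against 7.17 and 5.97 at stage 14, did not follow this order at stage 16. Stage 16 replicate 1 is also the array with low 5' signal. Without both such arrays TwdlG and Cpr65Ea did not pass (adjusted p = 0.0618 and 0.126). The labels allow a spread of 4 h in age within a collection, and its part in these differences was not tested.

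**Figure D2:**
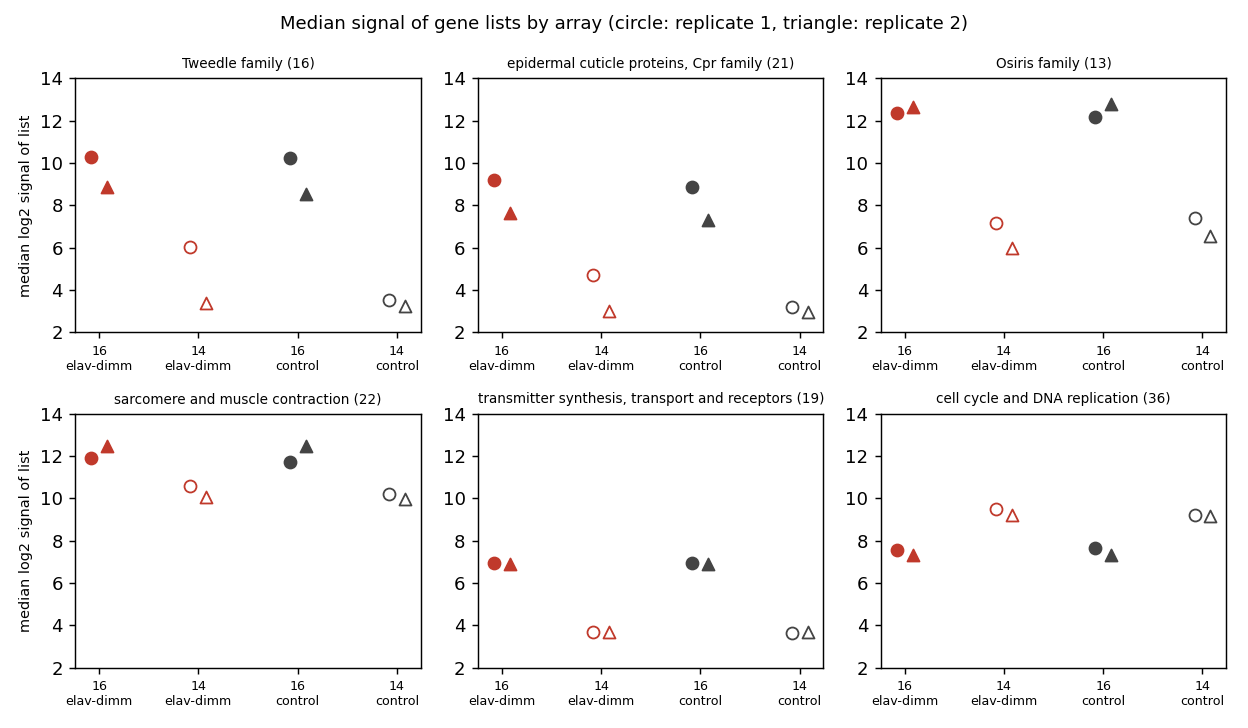
Each panel gives the median log2 GCRMA signal over the tested genes of 1 list on the vertical axis, for stage 16 and stage 14 elav-dimm arrays (red) and stage 16 and stage 14 control arrays (dark), with filled symbols for stage 16, open ones for stage 14, circles for replicate 1 and triangles for replicate 2. The Tweedle and Cpr family medians of replicate 1 lie above those of replicate 2 in each group, while the transmitter list has nearly the same median in both replicates.

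Genes that build and harden the chitin matrix rose in most cases. The background over all genes was 21.3% higher and 43.8% lower, or 27.6% and 30.3% on centred arrays. For the 6 epidermal differentiation factors below, the share of falls lay near that background. Of 28 tested genes of chitin synthesis and the chitin matrix, 20 rose and 3 fell (21 and 3 on centred arrays, 22 and 4 without both low 5' arrays). Peritrophin-A and obst-E, which encode chitin-binding proteins, rose by 4.56 ± 0.22 and 3.14 ± 0.73, and the chitinase family gene Cht6 rose by 2.47 ± 0.35. Without either stage 14 elav-dimm array obst-E did not pass (adjusted p = 0.0536 to 0.0684). The gut chitin synthase gene Chs2 fell by 2.17 ± 0.092, or by 0.72 with values below 4 raised to 4, whereas kkv, the epidermal chitin synthase gene, had 12.54 and 12.74 at stage 16, against 11.02 and 10.89 at stage 14, a rise of 1.68 ± 0.11. Among 15 genes of cuticle crosslinking and the apical matrix, 10 rose and 1 fell (11 and 1 on centred arrays, 11 and 2 without both low 5' arrays), led by yellow-d (5.56), the zona pellucida domain gene dyl (5.12) and the peroxidase gene Pxd (4.46, or 2.65 with values below 4 raised to 4). The member of that list that fell as deposited was yellow-e3. Of 6 epidermal differentiation factors none rose and 3 fell (0 and 2 on centred arrays, 1 and 3 without both low 5' arrays). Beside Blimp-1, ovo, which encodes the Shavenbaby regulator of denticles, fell by 2.03 ± 0.17, and grh, for the Grainyhead factor of barrier formation, fell by 0.84 ± 0.20 but did not pass on centred arrays (adjusted p = 0.0599) or without either stage 14 elav-dimm array (adjusted p = 0.06 to 0.0712).

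Genes of ecdysone and juvenile hormone moved in both directions, with a share of falls near the background of 43.8% (21.3% for rises). Of 17 tested genes 6 rose and 7 fell (7 and 6 on centred arrays, 7 and 7 without both low 5' arrays). The nuclear receptor gene ftz-f1, expressed when the ecdysone titre falls, had 9.07 and 10.68 at stage 16, against 7.59 and 5.70 at stage 14, a rise of 3.23 ± 1.04 (adjusted p = 0.0381). It did not pass without either control array of stage 14, without stage 16 elav-dimm replicate 2 or without stage 14 elav-dimm replicate 2 (adjusted p = 0.0689 to 0.182). The other tested probe set of ftz-f1 rose by 2.74 with all arrays (adjusted p = 5.27e-05). ImpE1 and ImpL1, both known as ecdysone-inducible in imaginal discs, rose by 2.12 ± 0.12 and 1.92 ± 0.077. Cyp18a1, for the enzyme that inactivates ecdysone, rose by 1.32 ± 0.15. The receptor gene Hr39 fell by 2.21 ± 0.13 and Hr3, which acts upstream of ftz-f1, fell by 0.90 ± 0.18. E23, a transporter gene of the ecdysone response, fell by 2.14 ± 0.18. The receptor gene EcR itself had 10.47 and 11.44 at stage 16, against 10.97 and 11.18 at stage 14, and did not pass.

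Most genes of the contractile apparatus rose, against a background of 21.3% higher and 43.8% lower. Of 22 tested sarcomere genes 18 rose and none fell (19 and 0 on centred arrays, 20 and 0 without both low 5' arrays). Zasp66, for a Z-disc protein, had 8.85 and 7.81 at stage 16, against 4.29 and 3.33 at stage 14, and it rose by 4.52 ± 0.65. Prm, the paramyosin gene, rose by 4.05 ± 0.33, and the LIM protein genes Mlp84B and Mlp60A rose by 3.33 ± 0.27 and 3.23 ± 0.29. The median over the list was 1.82, against -0.45 over all tested probe sets. In the list of myoblast identity and fusion, 2 of 16 rose and 8 fell (4 and 7 on centred arrays, 3 and 9 without both low 5' arrays), a share of falls near the background of 43.8%. The genes lmd, blow and rst, which act in myoblast fusion, fell by 1.95 ± 0.14, 1.57 ± 0.23 and 1.51 ± 0.29, and the LIM homeobox gene ap fell by 1.62 ± 0.45. Without either stage 14 elav-dimm array or stage 16 replicate 1, ap did not pass (adjusted p = 0.0823 to 0.109). The other tested probe set of ap fell by 2.56 with all arrays (adjusted p = 0.000741). The integrin subunit genes if and mew, which anchor muscle ends, rose by 0.83 ± 0.20 and 0.47 ± 0.12.

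Most tested genes of working synapses and excitable membranes rose, although the general neuronal marker elav did not. Over all genes 21.3% were higher and 43.8% lower, or 27.6% and 30.3% on centred arrays. Of 23 tested pan-neuronal and synaptic genes 13 rose and 2 fell (16 and 1 on centred arrays, 17 and 3 without both low 5' arrays). Rim, an active zone scaffold gene, had 7.91 and 9.03 at stage 16, against 3.63 and 4.08 at stage 14, a rise of 4.61 ± 0.41 (adjusted p = 0.000282). The presynaptic calcium channel gene cac rose by 4.34 ± 0.34, the vesicle SNARE gene nSyb by 4.18 ± 0.073 and the synapsin gene Syn by 3.93 ± 0.53. The change of elav was -0.60 ± 0.086 (adjusted p = 0.00189), and -0.29 after centring (adjusted p = 0.0336). Of 35 ion channel genes on the array 10 were tested and 8 rose, as many on centred arrays and without both low 5' arrays. The calcium-activated potassium channel gene SK had 9.30 and 9.28 at stage 16, against 3.82 and 3.84 at stage 14. Shaw, a voltage-gated potassium channel gene, rose by 3.29 ± 0.077, and qvr and stj, which encode auxiliary channel proteins, rose by 2.35 ± 0.081 and 2.34 ± 0.16. Several of these genes lay below 4 at stage 14. Their rises on values raised to 4 were 2.71 for nSyb, 1.48 for Shaw and 0.56 for qvr. Genes dim at stage 14 could pass the filter only through stage 16, where they then had to be higher.

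Tested transmitter genes of several kinds were higher at stage 16, against a background of 21.3% higher and 43.8% lower. Of 38 genes of transmitter synthesis, transport and reception on the array 19 were tested, and 15 rose and 2 fell (16 and 1 on centred arrays, 15 and 3 without both low 5' arrays). The count describes the bright members alone, since those dim at stage 14 passed the filter through stage 16 and had to be higher there. Vmat, the vesicular monoamine transporter gene, had 8.76 and 7.56 at stage 16, against 2.32 and 3.03 at stage 14, a rise of 5.48 ± 0.60. DAT, for the dopamine transporter, rose by 4.58 ± 0.10, ChT, for the choline transporter, by 4.56 ± 0.12, and the nicotinic receptor gene nAChRalpha5 by 4.17 ± 0.081. These 4 genes had stage 14 means below 4, and with values below 4 raised to 4 their rises were 4.16 (Vmat), 2.76 (DAT), 3.40 (ChT) and 2.92 (nAChRalpha5). Gad1, of GABA synthesis, rose by 3.91 and ChAT, of acetylcholine synthesis, by 1.94. Subunits of the muscle glutamate receptor split. GluRIIA rose by 3.11 ± 0.14, while GluRIIB fell by 1.97 ± 0.15, with 5.22 and 5.11 at stage 16, against 7.03 and 7.25 at stage 14.

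The tested genes that process and store neuropeptides, which DIMMED is known to raise, were also mostly higher at stage 16. In control embryos 7 of them likewise rose and none fell. The background in elav-dimm embryos was 21.3% higher and 43.8% lower. Of 10 tested genes on that list 7 rose and none fell, also on centred arrays, while without both low 5' arrays 8 rose and 1, Phm, fell. IA-2, for a transmembrane protein of dense core vesicles, had 9.7 and 9.47 at stage 16, against 3.18 and 2.55 at stage 14, a rise of 6.72 ± 0.25. The prohormone convertase gene amon had 7.70 and 8.28 at stage 16, against 2.77 and 2.41 at stage 14, and 7B2, the gene of its chaperone, had 9.24 and 8.48 at stage 16, against 5.65 and 5.64 at stage 14. Pal2, which encodes a lyase of peptide amidation, had 6.60 and 7.78 at stage 16, against 2.45 and 2.45 at stage 14, and its rise was 4.74 ± 0.36. Rph, the rabphilin gene, rose by 3.74 ± 0.32 and CG1275, a cytochrome b561 family gene, by 3.24 ± 0.22. IA-2, amon, Pal2 and Rph lay below 4 at stage 14, so they passed the filter only through stage 16 and had to be higher there. With values below 4 raised to 4 they rose by 5.59, 3.99, 3.19 and 3.36. As deposited, their rises in control embryos were 6.66, 4.58, 2.19 and 3.14. By contrast Phm, for the monooxygenase that acts before the lyase, was already bright at stage 14. Its brighter probe set had 10.99 and 11.20 at stage 16, against 11.42 and 11.42 at stage 14, a difference of -0.33 ± 0.17 (adjusted p = 0.144), and the other differed by -0.51 ± 0.30 (adjusted p = 0.191). Without both low 5' arrays both passed as lower, by -0.22 (adjusted p = 0.0242) and -0.77 (adjusted p = 0.0492), with 1 stage 16 array left. Cadps, of vesicle priming, had 10.44 and 10.83 at stage 16, against 10.58 and 10.90 at stage 14, and did not pass.

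The transgene did not give a clear direction. The dimm signal was 5.51 and 8.26 at stage 16, against 7.59 and 7.66 at stage 14, so the stage 16 arrays lay on either side of both stage 14 arrays. In control embryos it was 2.53 and 2.68 at stage 16, against 2.86 and 2.80 at stage 14, below every elav-dimm array. Its difference was -0.74 ± 0.84 (adjusted p = 0.467), and without both low 5' arrays it was 0.64 (adjusted p = 0.00275), which rests on 1 stage 16 array. Peptide precursor genes had 37 members on the array, of which 5 passed the filter. All of these, Mip, Pdf, Nplp1, CCHa2 and Nplp2, passed as higher, with rises of 0.28 (Nplp2) to 4.13 (Mip) log2 units. Over all genes 21.3% were higher and 43.8% lower. The precursor gene Pdf of pigment-dispersing factor had 5.43 and 5.43 at stage 16, against 2.49 and 2.49 at stage 14. Control replicate 1 at stage 16 and control replicate 2 at stage 14 had exactly these values. Whether such tied values are the lowest signal of the probe set at each stage, and its rise a gap between them, was not tested. Raising values below 4 to 4 does not address this. With values below 4 raised to 4 the rises of Pdf and Mip were 1.43 and 2.55. Nplp2 had 14.91 and 14.96 at stage 16, against 14.66 and 14.65 at stage 14, and CCHa2 did not pass without any 1 of stage 16 replicate 1, stage 16 replicate 2 and stage 14 replicate 1 (adjusted p = 0.0588 to 0.0798). The other 32 precursors did not lie above 4 on at least 2 elav-dimm arrays, and the tested ones that were dim at stage 14 passed the filter through stage 16.

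**Figure D3:**
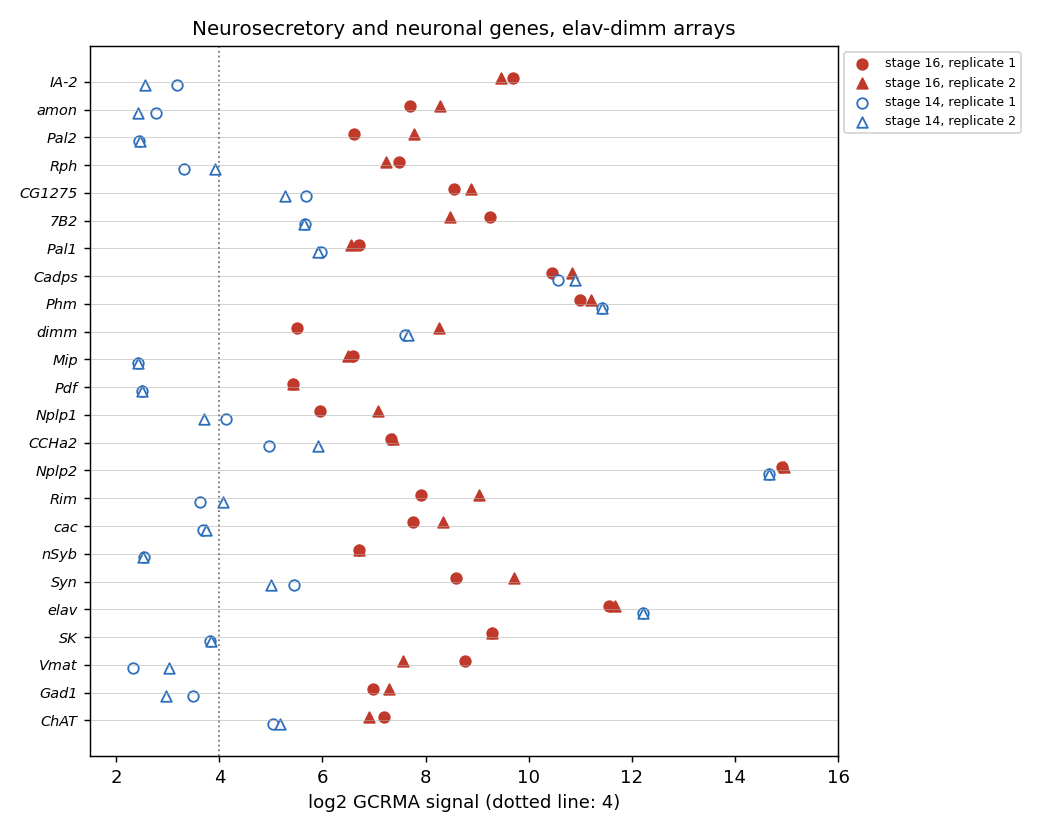
The horizontal axis gives the log2 GCRMA signal and each row 1 gene, with filled red symbols for stage 16 and open blue symbols for stage 14 elav-dimm arrays (circles replicate 1, triangles replicate 2; the dotted line marks 4). IA-2, amon and Pal2 lie below 4 at stage 14 and above 6 at stage 16, whereas Phm and Cadps stay between 10.44 and 11.42, and the 2 stage 16 values of dimm, 5.51 and 8.26, lie on either side of its stage 14 values.

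Genes of wiring and glia included single large changes in both directions. Of 32 tested genes of axon guidance and adhesion 2 rose and 8 fell (4 and 7 on centred arrays, 5 and 16 without both low 5' arrays), against a background of 21.3% higher and 43.8% lower, with a median of -0.57, close to that of all probe sets. Drl-2, a Ryk family receptor gene, rose by 3.05 ± 0.44. The guanine exchange factor gene trio fell by 1.35 ± 0.14, comm2 by 1.34 ± 0.21 and the transmembrane gene kek5 by 1.13 ± 0.15. Of 16 glial genes 1 rose and 9 fell, with a median of -0.63, but on centred arrays 3 fell (2 rose and 10 fell without both low 5' arrays). The astrocyte gene alrm had 8.41 and 8.87 at stage 16, against 6.05 and 5.92 at stage 14, a rise of 2.65 ± 0.22, while gcm, which starts the glial fate, fell by 2.18 ± 0.20 and the septate junction gene Gli by 1.13 ± 0.27. Gli did not pass without either stage 14 elav-dimm array or stage 16 replicate 1 (adjusted p = 0.0507 to 0.0697). In the septate junction list, whose share of falls lay near the background of 43.8%, 3 of 21 rose. They were mesh, Tsp2A and Ssk, the genes of the smooth junctions of the gut (2.32, 2.27 and 1.10). Another 9 fell (4 and 5 on centred arrays, 4 and 11 without both low 5' arrays).

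Tested neural precursor genes fell in most cases. Those dim at stage 16 passed the filter only through stage 14, so they had to be lower at stage 16. Of 25 tested genes of neuroblasts and neural precursors none rose and 20 fell, with a median of -1.68 (18 fell on centred arrays and 22 without both low 5' arrays). The paired-box genes gsb and gsb-n fell by 4.48 ± 0.087 and 3.86 ± 0.095 (gsb by 2.80 with values below 4 raised to 4), and nerfin-1, an early neuronal differentiation gene, fell by 2.49 ± 0.32. The neuroblast gene wor had 8.36 and 8.60 at stage 16, against 10.58 and 10.56 at stage 14. Neuronal identity factors were mixed, against a background of 21.3% higher and 43.8% lower. Among 19 tested, 2 rose and 7 fell (3 and 7 on centred arrays, 4 and 9 without both low 5' arrays). The islet gene tup fell by 2.16 ± 0.50 (adjusted p of 0.0551 to 0.0662 without either stage 14 elav-dimm array or stage 16 replicate 1), while eve, a homeobox gene of motor neurons and heart, had 4.79 and 4.79 at stage 16, against 2.63 and 2.81 at stage 14, a rise of 2.07 ± 0.12 that was 0.79 with values below 4 raised to 4. The gene lola fell by 1.73 ± 0.14 in 1 probe set and rose by 0.79 in another and is given no direction here.

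Tested segmentation and other patterning genes fell as broadly, and again those dim at stage 16 passed the filter only through stage 14. The background was 21.3% higher and 43.8% lower, or 27.6% and 30.3% on centred arrays. Of 31 tested 27 fell and 1, eve, rose, with 23 lower on centred arrays and 29 without both low 5' arrays. The GATA factor gene pnr had 4.16 and 4.20 at stage 16, against 8.66 and 8.43 at stage 14, a fall of 4.36 ± 0.13, and the T-box gene Doc2 fell by 3.74 ± 0.12. The Hedgehog receptor gene ptc fell by 2.91 ± 0.50. With values below 4 raised to 4 these falls were 2.15 for Doc2 and 1.78 for ptc. Of the Hox genes and their cofactors 3 were tested. Scr fell by 0.56 ± 0.13 and did not pass on centred arrays (adjusted p = 0.145) or without either stage 14 elav-dimm array (adjusted p = 0.0522 to 0.0626). Antp differed by 0.19 ± 0.12, which passed as higher only on centred arrays (adjusted p = 0.0168), and Dfd by -0.91 ± 0.47.

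Tested proliferation genes fell almost throughout. In this list and in the chromatin and germline lists, genes dim at stage 16 passed the filter only through stage 14 and had to fall. Of 36 tested cell cycle and replication genes 33 fell, none rose, and the median was -1.95. On centred arrays 31 fell and 1, Orc1, rose, and 35 fell without both low 5' arrays. The anaphase activator gene fzy had 4.79 and 4.78 at stage 16, against 9.83 and 9.61 at stage 14, a fall of 4.94 ± 0.11 (adjusted p = 3.6e-06). The mitotic kinesin gene Klp61F fell by 4.77 ± 0.11, the centralspindlin gene tum by 4.56 ± 0.15 and the Cdc25 phosphatase gene twe by 4.17 ± 0.49. With values below 4 raised to 4 the falls of Klp61F and twe were 3.34 and 2.51. Of 23 chromatin genes 20 fell and none rose (16 fell on centred arrays and 23 without both low 5' arrays). The largest falls there were those of condensin subunits, glu (-4.46), SMC2 (-4.18) and Cap-D2 (-3.46), followed by the histone chaperone gene asf1 (-2.59). Of 13 cell death genes 1 rose and 5 fell (3 and 4 on centred arrays, 3 and 6 without both low 5' arrays), a share of falls below the background of 43.8%. Among them were the caspase genes Dronc (by 1.61) and Dcp-1 (by 1.26) and the apoptosome gene Dark (by 1.0, with an adjusted p of 0.0531 to 0.0592 without either stage 14 elav-dimm array). A gene of that list rose, wgn, for a TNF receptor, by 0.48 ± 0.13. Germline and maternal genes fell in 6 of 12 cases, near the background share, and none rose (0 and 5 on centred arrays, 1 and 4 without both low 5' arrays), with bam, a differentiation gene of germ cells, at 2.19 and 2.19 at stage 16, against 5.67 and 5.55 at stage 14, a fall of 3.42 ± 0.11, or of 1.61 with values below 4 raised to 4.

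**Figure D4:**
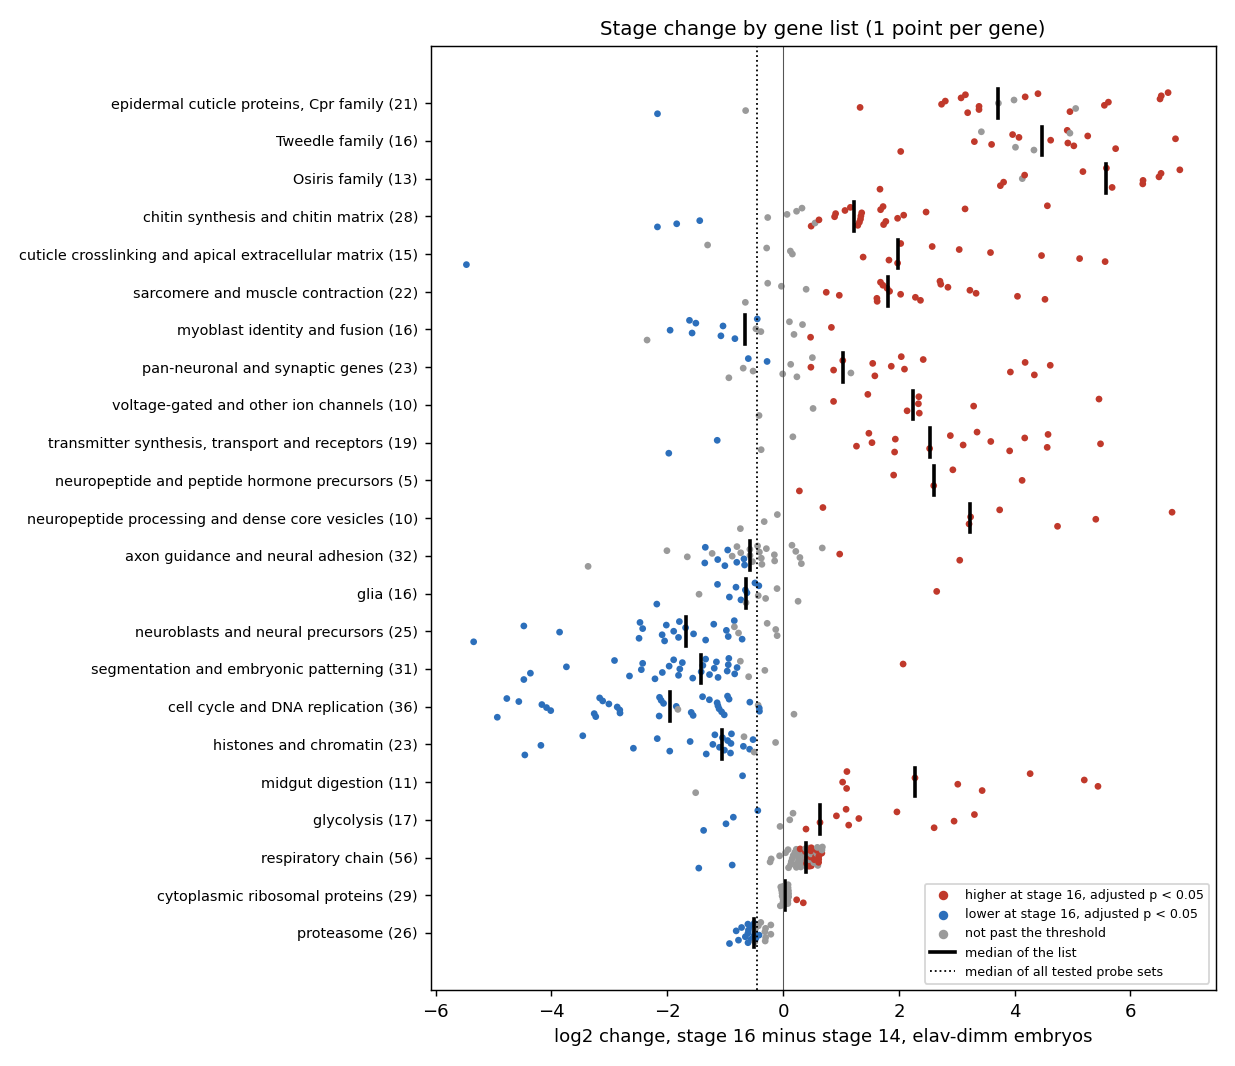
The horizontal axis gives the log2 change of a gene, stage 16 minus stage 14, in elav-dimm embryos, and each row 1 gene list with its number of tested genes in brackets. Red points passed as higher, blue points as lower and grey points did not pass, black bars are list medians, and the dotted line is the median of all tested probe sets, -0.45. The Osiris median lies at 5.58 and the cell cycle median at -1.95.

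Basement membrane and digestive enzyme genes contributed further rises. In the tracheal and gut identity lists falls outnumbered rises, as they did over all genes (21.3% higher and 43.8% lower). Among 18 tracheal genes 3 rose and 9 fell (5 and 6 on centred arrays, 6 and 9 without both low 5' arrays). The mucin gene Muc91C rose by 5.71 ± 0.18 and wat, a gene of tracheal gas filling, by 4.70 ± 0.15, whereas the gap gene kni fell by 1.97 ± 0.12. The rise of Muc91C was 3.90 with values below 4 raised to 4. The ligand gene bnl fell by 1.89 ± 0.16 in 1 probe set and rose by 1.04 in another. Of 22 haemocyte and basement membrane genes 10 rose and 5 fell (10 and 3 on centred arrays, 12 and 6 without both low 5' arrays), and the largest of these encode matrix. The pericardin gene prc had 8.39 and 8.09 at stage 16, against 2.99 and 2.99 at stage 14, a rise of 5.25 ± 0.21, or of 4.24 with values below 4 raised to 4, and the collagen IV genes Col4a1 and vkg rose by 2.83 ± 0.13 and 2.79 ± 0.22. The scavenger receptor gene Sr-CI of haemocytes fell by 3.32 ± 0.11. Digestive genes of the midgut rose in 9 of 11 tested cases, of 50 with a probe set, and fell in 1 (9 and 1 on centred arrays, 9 and 2 without both low 5' arrays). The maltase gene Mal-A3 rose by 5.44 ± 0.59, the protease gene Jon65Aiii by 5.20 ± 0.43 and the sterol-binding protein genes Npc2b and Npc2e by 4.27 ± 0.079 and 3.44 ± 0.15. After values below 4 were raised to 4 the rises were 3.65 for Mal-A3, 3.38 for Jon65Aiii and 1.64 for Npc2e, and here too the count describes the bright members alone. In the list of gut and Malpighian tubule identity 3 of 14 rose and 7 fell (4 and 4 on centred arrays, 3 and 8 without both low 5' arrays), with the ion cotransporter gene NKCC at 5.72 and 4.39 at stage 16, against 2.18 and 2.18 at stage 14. Its rise of 2.87 ± 0.46 shrank to 1.06 and did not pass with values below 4 raised to 4 (adjusted p = 0.101). None of 10 fat body genes rose as deposited and 2 fell, against 3 higher and 2 lower on centred arrays and 2 higher and 5 lower without both low 5' arrays. Of these falls that of Hex-A, for hexokinase, was 0.99 ± 0.20. The salivary gland and secretory list had a share of falls near the background of 43.8%, where none of 10 rose and 5 fell (1 and 2 on centred arrays, 0 and 7 without both low 5' arrays).

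Metabolic enzymes changed along with tissue genes. The counts of these lists and of the stress and immune lists stand against a background of 21.3% higher and 43.8% lower. Of 17 tested genes of glycolysis and its branches 10 rose and 4 fell (12 and 2 on centred arrays, 11 and 4 without both low 5' arrays). Tpi had 12.34 and 12.21 at stage 16, against 9.12 and 8.83 at stage 14, a rise of 3.3 ± 0.14, and Gapdh1 and Pgk, the enzymes of the following steps, rose by 2.95 ± 0.14 and 2.61 ± 0.16, while Gpdh1, of the glycerol phosphate branch, fell by 1.37 ± 0.23. Glutathione S-transferase genes rose in 14 of 23 cases and fell in 3 (17 and 3 on centred arrays, 16 and 4 without both low 5' arrays), from a rise of 3.85 for GstE10 to a fall of 3.08 for GstD5 (2.11 and 1.53 with values below 4 raised to 4). Of 24 tested cytochrome P450 genes 12 rose and 8 fell (13 and 4 on centred arrays, 13 and 9 without both low 5' arrays). Cyp49a1 rose by 5.19 ± 0.12, Cyp4d1 by 4.37 ± 0.27, and Cyp4g1, whose enzyme makes cuticular hydrocarbons in oenocytes, by 3.17 ± 0.11. The rises of Cyp49a1 and Cyp4d1 with values below 4 raised to 4 were 3.46 and 2.55. In the stress list 3 of 13 rose and 5 fell (4 and 2 on centred arrays, 5 and 7 without both low 5' arrays). AsnS, for asparagine synthetase, had 4.19 and 3.84 at stage 16, against 7.67 and 7.64 at stage 14, a fall of 3.64 ± 0.19, and the small heat shock gene Hsp27 fell by 1.72 ± 0.44, with an adjusted p of 0.0753 to 0.078 without either stage 14 elav-dimm array or stage 16 replicate 2. Among 11 immune genes 4 rose and 3 fell (5 and 3 on centred arrays, 4 and 3 without both low 5' arrays). BomS2, of a family of secreted immune peptides, rose by 3.46 ± 0.30, the NF-kappaB factor gene dl by 2.33 ± 0.13 and the Toll ligand gene spz by 2.31 ± 0.23, and GNBP3, a glucan receptor gene, fell by 1.28 ± 0.20.

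For housekeeping complexes the number of genes past the threshold depended on the scaling. The background was 21.3% higher and 43.8% lower as deposited, and 27.6% higher and 30.3% lower on centred arrays. Of 29 tested ribosomal protein genes 2 rose as deposited (RpLP0 by 0.35 ± 0.079 and RpS30 by 0.23 ± 0.082), with a median of 0.035, but 26 passed as higher on centred arrays. The other probe set of RpS30 fell by 0.47. RpS30 did not pass without any 1 elav-dimm array or stage 14 control array (adjusted p = 0.0909 to 0.167), nor RpLP0 without stage 14 elav-dimm replicate 2 (adjusted p = 0.0601). Respiratory chain genes rose in 19 of 56 cases as deposited, in 46 on centred arrays and in 29 without both low 5' arrays, with a median of 0.40 as deposited. Vacuolar proton pump genes rose in 9 of 16 cases (11 centred and 14 without both low 5' arrays). Vha55 rose by 1.01 ± 0.23, with an adjusted p of 0.0537 to 0.0594 without either stage 14 elav-dimm array or stage 16 replicate 2. Proteasome genes fell in 16 of 26 cases as deposited, in 4 on centred arrays and in 23 without both low 5' arrays. Their median of -0.49 lay close to that of all probe sets, and their share of falls on centred arrays lay below the background. In the respiratory chain list 2 genes, sun (-1.46) and UQCR-11 (-0.88), fell on both scales.

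The stage change with dimm was close in size to that of control embryos for most tested transcripts. The absolute difference between them had a median of 0.14 and a 95th percentile of 0.56 log2 units. The median absolute stage change was 0.88. The test of the difference between the genotypes' stage changes passed for 1 of 8165 probe sets (0.0122%) in limma, and 245 had an unadjusted p under 0.05. As a description, the 2 stage changes correlated across 8165 probe sets with a Pearson r of 0.983 and a Spearman rho of 0.978. The genotypes share no arrays, but same-numbered stage 16 arrays shared deviations from their group means (correlation 0.905). All arrays share the platform and its normalisation. Deviations shared at stage 16 cancel in the difference between the stage changes, yet the test counted them as error. Its few calls therefore do not show that the changes were equal. In control embryos 4977 probe sets (61.0%) passed, 1763 (21.6%) as higher and 3214 (39.4%) as lower at stage 16. The same direction was called in both genotypes for 1612 rises and 3110 falls. Opposite calls were made for 1 probe set, CngA, a cyclic nucleotide-gated channel gene. CngA had 3.50 and 3.57 at stage 16, against 8.50 and 8.42 at stage 14 in elav-dimm embryos, and 3.46 and 3.45 at stage 16, against 2.18 and 2.18 at stage 14 in control embryos, where both stage 14 arrays were at the lowest value. The difference between the stage changes was -6.19 ± 0.11 (adjusted p = 8.14e-05). All control values of CngA lay below 4, so the rise called in control embryos was between signals near background.

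No other gap passed when 4 group means alone were fitted to the deposited values of the tested probe sets. Another 4 genes passed with values below 4 raised to 4 or with a replicate block within each stage. Without a filter jhamt (0.69), CG7920 (0.19) and ZnT77C (-0.44) were among those that passed. CG4577 had 9.20 and 9.39 at stage 16, against 3.98 and 3.22 at stage 14 with dimm and 5.26 and 5.45 at stage 16, against 2.18 and 2.18 at stage 14 in control embryos, a difference of 2.52 ± 0.36 (adjusted p = 0.594), or of 3.94 with values below 4 raised to 4 (adjusted p = 0.00282). GstD5 passed on the same raised values with a difference of -1.53 (adjusted p = 0.0187). CG4440 and CG8157 differed by -2.36 ± 0.18 (adjusted p = 0.0997) and -2.19 ± 0.88 (adjusted p = 1), and both passed with a replicate block within each stage (adjusted p = 0.0292). CG33258 had 2.27 and 2.26 at stage 16, against 7.08 and 7.95 at stage 14 with dimm, and in control embryos 2.22 and 2.23 at stage 16, against 2.78 and 2.57 at stage 14, a difference between stage changes of -4.79 ± 0.39 (adjusted p = 0.0997). It passed without either stage 14 elav-dimm array (adjusted p = 0.0124 and 0.027). Pal2, the amidation gene above, had 4.66 and 4.62 at stage 16, against 2.45 and 2.44 at stage 14 in control embryos, a difference between stage changes of 2.55 ± 0.51 (adjusted p = 1). Leaving out stage 16 elav-dimm replicate 1 gave 3.13 ± 0.11 (adjusted p = 0.0151), and leaving out both low 5' arrays gave 3.15 ± 0.04 (adjusted p = 0.0194). All 4 stage 14 arrays of Pal2 lay close to the lowest value, where arrays hardly vary, so these errors may be too small. Cyp304a1 had 6.91 and 7.81 at stage 16, against 2.18 and 2.18 at stage 14 in control embryos, a difference of 2.18 ± 0.40 (adjusted p = 1), which passed without stage 16 control replicate 2 (2.64 ± 0.10, adjusted p = 0.0209) and without both low 5' arrays (1.74, adjusted p = 0.0375). Over the lists the median difference between the stage changes lay between -0.21 (midgut digestion) and 0.24 (neuropeptide processing), against -0.06 over all probe sets. The genes of this comparison other than CngA were singled out after their values were seen.

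**Figure D5:**
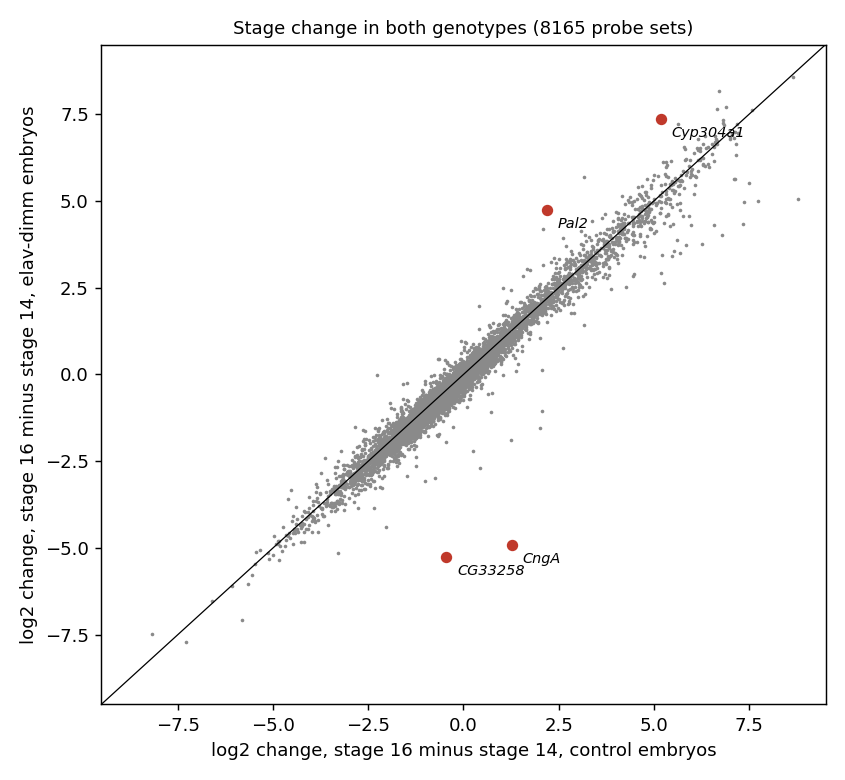
Each point is 1 probe set, with its log2 change from stage 14 to stage 16 in control embryos on the horizontal axis and in elav-dimm embryos on the vertical axis, and the line marks equal changes. Most of the 8165 points lie along the line, CngA and CG33258 lie far below it, and Pal2 and Cyp304a1 lie above it.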

How the data were processed

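The deposited table holds log2 signals that the authors made with GCRMA 2.22.0 in R 2.12.1, per the submitters' processing notes. The lowest value is 2.186 at stage 16 and 2.182 at stage 14, and the sources used here do not say if all 8 arrays went through GCRMA at once. The 183 control probe sets were left out, leaving 18769. The platform annotation gave 1 gene for 13647 of these, several for 402 and none for 4720. Symbols were updated with RefSeq genes (assembly Release 6 plus ISO1 MT), in which 89 of 11983 gene identifiers were not found.

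limma 3.58.1 in R 4.3.3 fitted 4 group means to all 8 arrays (4 residual degrees of freedom) over probe sets above 4 on at least 2 of the 4 elav-dimm arrays, with Benjamini-Hochberg adjustment and a threshold of 0.05. Errors beside log2 changes are standard errors. The fit was tested on simulated data. Where several single-gene probe sets were tested, the brightest one (mean of the elav-dimm arrays) stands for the gene. Of 722 list genes tested, 54 had another tested probe set, with opposite calls for 3. Named were dimm, elav, Phm, the 14 largest rises and falls with a mean of at least 6 at either stage and arrays not overlapping, and, per list, the 4 or fewer called members of greatest change. Others, such as repo, kkv, wor and CG1275, were named after their values were seen. The members and the 40 lists were chosen with earlier results of these data known, and mismatched symbols were corrected and the Hox list trimmed after values were seen.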

Additional observations from a re-analysis of the deposited data

Results flagged for a closer look

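The stage change of CngA differed between the genotypes by -6.19 on the log2 scale in limma's test of that difference. It was lower at stage 16 in elav-dimm embryos (-4.92) and higher in control embryos (1.27). Every control array lay below 4. With values below 4 raised to 4, control embryos therefore showed no change, and the difference was -4.46.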

How the results depend on the processing

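The count of probe sets past the threshold, 5208, lay between 3924 and 5658 without any single array, and its rises and falls between 1383 and 1786 and between 2541 and 3872. Joint quantile normalisation gave 1978 higher and 2764 lower, against 1684 and 3524 as deposited and 2232 and 2450 after centring. Without a filter 14766 passed, 10348 of them higher. Among these rises were 6421 probe sets at the lowest value on all 4 elav-dimm arrays. Those count as higher through the gap of 0.00446 between the stages' lowest values. The cause of the other added calls was not tested. Alternatives that combine centring with fewer arrays were chosen after seeing the data. Centred and without both low 5' arrays, 2921 were higher. Centred with the elav-dimm arrays alone 2264 were lower, and centred without the low 5' elav-dimm array 2198 were. In these 3 the cause was not tested. The difference between genotypes passed for 3 probe sets with values below 4 raised to 4 (CngA, CG4577 and GstD5), for 3 with a replicate block within each stage, for 5 without a filter, for 7 without both low 5' arrays and for 6 when also centred. It passed for 2 when centred without the low 5' elav-dimm array, and for 1 to 2 without any single array. CngA was among them each time, and the cause of the added calls was not tested. A replicate block over all arrays gave 5470 for the stage change and a block within each stage 6820. Same-numbered elav-dimm arrays of the 2 stages correlated at 0.132 in their deviations. The labels do not say if they shared a collection or batch, and this was not tested. Of 178 named probe sets 175 had a call. Leaving out a stage 14 elav-dimm array cost more of them their call than any other alternative that tested all 178. The filter above 6 left some of them untested. Signals near the lowest value limit the size of changes from or to background, and 2 arrays a group limit all errors.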
